A study of Mus musculus with 84 samples.

Results

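The unfolded protein response and the heat shock response were followed in the liver of mice fed 1 of 3 organophosphate pesticides (OPPs). A list of 41 genes was drawn up from their known roles, and the 35 whose median estimated count over all mice was above 8 were analysed, out of 10415 genes that met the same minimum and 17695 genes in the count table. They comprised 14 endoplasmic reticulum (ER) chaperones and folding enzymes, 4 genes of ER-associated degradation (ERAD), 3 sensors and transcription factors, Atf4 with 6 of its targets, 5 cytosolic heat shock genes and 2 mitochondrial chaperones.

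Livers came from 84 male B6C3F1 mice in 12 groups of 7, all on AIN-93G diet for 7 days from 8 weeks of age. The control diet held no pesticide, and the dosed diets held fenthion (FT) at 2.5, 5, 10 or 20 ppm, methidathion (MT) at 10, 25, 50 or 100 ppm, or parathion (PT) at 20, 40 or 80 ppm. FT and PT are phosphorothioates, FT with methoxy groups and a methylthio-substituted phenyl ring and PT with ethoxy groups and a nitrophenyl ring, while MT is a phosphorodithioate with a thiadiazole ring. Every group had 2 mice in experimental block 1, 3 in block 3 and 2 in block 4, and RNA was isolated by EPA for 7 mice (2 control, 1 of MT 10 ppm, 2 of MT 100 ppm and 2 of FT 20 ppm) and by EA for the other 77. Per the paper's methods, mice shared cages and whole cages were assigned to a diet. The labels used here do not give the cages. Mice of 1 cage were therefore treated as independent, and p-values may be too small. Expression was read by TempO-Seq, in which pairs of oligos anneal side by side on an mRNA, are ligated, amplified and counted. A level is given as CPM, the counts of a gene scaled to a common library size by trimmed means. Summed levels of marker lists were scaled by total counts instead, over all genes of a list in the count table, tested or not. Since each probe captures its mRNA with its own efficiency, levels are compared between mice and not between genes.

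The ER folds and inspects the proteins that a cell secretes, which in hepatocytes is most of what the liver delivers to the blood. When unfolded proteins build up there, 3 membrane sensors respond: Ern1 (IRE1) splices the mRNA of Xbp1, Atf6 is cut free to enter the nucleus, and the kinase Eif2ak3 (PERK) slows translation while favouring that of Atf4. Xbp1 and Atf6 raise chaperones and ERAD genes, and Atf4 raises amino acid enzymes and the stress factor Ddit3 (CHOP). The heat shock response is the counterpart in the cytosol, where Hsf1 raises Hsp70, Hsp90 and small chaperones. A gene count reads the mRNA levels of these genes, and neither the splicing of Xbp1, the cutting of Atf6 nor the translation of Atf4.

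The elements through which this response is known to act were searched on both strands in the 250 bases before the start site of each gene's canonical transcript (GENCODE annotation, build GRCm39). The ER stress element was searched as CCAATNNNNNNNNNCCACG (ERSE) and as ATTGGNCCACG (ERSE-II). An exact ERSE or ERSE-II lay in 20 of the 9730 protein-coding promoters of tested genes, a share of 0.206%, and 11 of these 20 were promoters of members: 9 of the 14 ER chaperones and 2 of the 4 ERAD genes. Members were listed for their known roles in this response, so their share is a description and no test. The matches follow, 5′ to 3′ on the strand of the gene, because this element is the one that most ER chaperones searched here carried, Hspa5 among them. Capitals mark the fixed bases of the element and lower case its free bases.
Hspa5 ERSE, chr2:34662037-34662055, + strand: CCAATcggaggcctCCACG
Hsp90b1 ERSE, chr10:86541502-86541520, - strand: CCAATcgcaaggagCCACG
Hsp90b1 ERSE, chr10:86541397-86541415, - strand: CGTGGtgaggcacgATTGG
Calr ERSE, chr8:85573704-85573722, - strand: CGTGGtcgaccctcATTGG
Canx ERSE, chr11:50216627-50216645, - strand: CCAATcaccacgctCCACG
Pdia6 ERSE, chr12:17316492-17316510, + strand: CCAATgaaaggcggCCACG
Dnajc3 ERSE, chr14:119175239-119175257, + strand: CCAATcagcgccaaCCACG
Creld2 ERSE, chr15:88703723-88703741, + strand: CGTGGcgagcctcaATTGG
Syvn1 ERSE, chr19:6096562-6096580, + strand: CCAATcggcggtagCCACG
Hyou1 ERSE-II, chr9:44290661-44290671, + strand: CGTGGcCCAAT
Hyou1 ERSE-II, chr9:44290762-44290772, + strand: CGTGGaCCAAT
Manf ERSE-II, chr9:106769238-106769248, - strand: CGTGGaCCAAT
Herpud1 ERSE-II, chr8:95113005-95113015, + strand: ATTGGgCCACG

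The other 3 elements were found in fewer members. TGACGTG (UPRE) lay in 1.99% of promoters and in those of Hspa5 and Hyou1, where it overlapped an ERSE-II. TGATGCAA (CARE, the site of Atf4 with a C/EBP partner) lay in 0.545% of promoters and in those of Atf3, Ddit3 and Herpud1. GAANNTTCNNGAA (HSE, the Hsf1 site) lay in 0.349% of promoters and in the stretch that Hspd1 and Hspe1, which are transcribed away from each other, share. Any of the 5 elements was found in 15 of 35 members against 3.03% of promoters, which is no test for the same reason. Whole 250-base windows are shown for Hspa5, the central ER chaperone, for Herpud1, which carries both an ERSE-II and a CARE, and for Pdia6, which has an ERSE and differed from control in the other direction than Herpud1 in PT 80 ppm. Capitals again mark the elements. A match is a string of letters and not a measured binding site.
Hspa5, chr2:34661854-34662103, + strand: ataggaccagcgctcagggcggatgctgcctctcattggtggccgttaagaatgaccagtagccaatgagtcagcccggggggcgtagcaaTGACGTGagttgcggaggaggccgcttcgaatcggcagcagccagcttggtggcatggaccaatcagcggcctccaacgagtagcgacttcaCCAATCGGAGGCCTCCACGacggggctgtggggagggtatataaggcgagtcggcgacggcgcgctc
Herpud1, chr8:95112787-95113036, + strand: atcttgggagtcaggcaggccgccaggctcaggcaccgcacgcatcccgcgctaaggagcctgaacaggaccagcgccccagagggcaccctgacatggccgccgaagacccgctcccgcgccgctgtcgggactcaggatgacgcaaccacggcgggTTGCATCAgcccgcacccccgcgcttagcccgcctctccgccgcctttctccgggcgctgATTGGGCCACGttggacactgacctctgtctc
Pdia6, chr12:17316283-17316532, + strand: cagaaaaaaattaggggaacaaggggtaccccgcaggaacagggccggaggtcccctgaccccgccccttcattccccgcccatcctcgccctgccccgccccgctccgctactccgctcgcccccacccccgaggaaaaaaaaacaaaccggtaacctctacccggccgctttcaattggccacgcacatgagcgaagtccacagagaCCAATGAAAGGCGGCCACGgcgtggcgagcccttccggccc

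Total counts were between 6950381 and 15300589 per mouse, so that 3 counts correspond to between 0.196 and 0.432 CPM. The 6 hepatocyte markers in the count table were all tested, with a summed level of 23800 to 60500 CPM. Of 7 markers of pancreatic acinar cells, an ER-rich neighbour of the liver, 6 had a median count of 0. Their summed level had a median of 0.97 CPM over all mice. It reached 20.5 CPM in a control mouse and 10.1 CPM in a PT 80 ppm mouse. PT 80 ppm replicate 1 (block 1) had the lowest mean correlation of any mouse with its own group, r = 0.939 over log2 levels. In bulk liver, fewer cells of a type and less RNA per cell cannot be told apart.

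No member was called in any FT or MT group or in PT 20 and 40 ppm, and 8 were called in PT 80 ppm. A call is an adjusted p under 0.05 in edgeR's quasi-likelihood test, Benjamini-Hochberg adjusted over all 10415 genes, with block and RNA isolator as covariates. Few genes of any kind were called in the groups without a called member: 0.00960% of all genes in FT 2.5 ppm, 0% in FT 5 ppm, 1.57% in FT 10 ppm, 0% in FT 20 ppm, 0% in MT 10 and MT 25 ppm, 0.00960% in MT 50 ppm, 0.0768% in MT 100 ppm, 0.00960% in PT 20 ppm and 0% in PT 40 ppm. At an unadjusted p under 0.05 the members numbered 0, 6, 3 and 3 of 35 in FT 2.5, 5, 10 and 20 ppm, against 10.7%, 7.59%, 17.7% and 3.98% of all genes. In MT 10, 25, 50 and 100 ppm they numbered 1, 3, 6 and 1, against 9.97%, 5.79%, 3.99% and 13.7%, and in PT 20 and 40 ppm 2 and 6, against 5.91% and 8.51%. DESeq2 and limma also called 0 members in each of these groups. In PT 80 ppm 18.6% of all genes were called, 9.75% higher and 8.89% lower, and the 8 of 35 members (4 higher, 4 lower) stood near that background, so the count is not a result about the members as a group. DESeq2 called 9 members there and limma 7 (5 higher, 2 lower), with their shares of all genes not given here. Scaling by total counts in edgeR, which moved the median of all genes by 0.12 on the log2 scale, also gave 5 higher and 2 lower. The limma values were scaled by total counts as well, so these 2 settings share their scaling. No member separated PT 80 ppm from control mouse by mouse, as 1.29% of all genes did.

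Tests over all doses of 1 pesticide followed the same order. The joint test of the doses called 0 members for FT (0.0768% of all genes) and 0 for MT (0.0864%), with 4 and 2 at an unadjusted p under 0.05 (14.8% and 9.21% of all genes) and 0 by DESeq2 and by limma. For PT it called 8 members against 19.6% of all genes: Hspa8, Pdia6, Herpud1, Trib3, Atf6, Ern1, Nupr1 and Canx. A linear slope over ppm in the diet was called for 0 members for FT (0.00960% of all genes) and 0 for MT (0.0384%), and for 7 members for PT against 26% of all genes. These were Nupr1, Atf6, Pdia6, Trib3, Herpud1, Hspa8 and Canx.

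**Figure D1:**
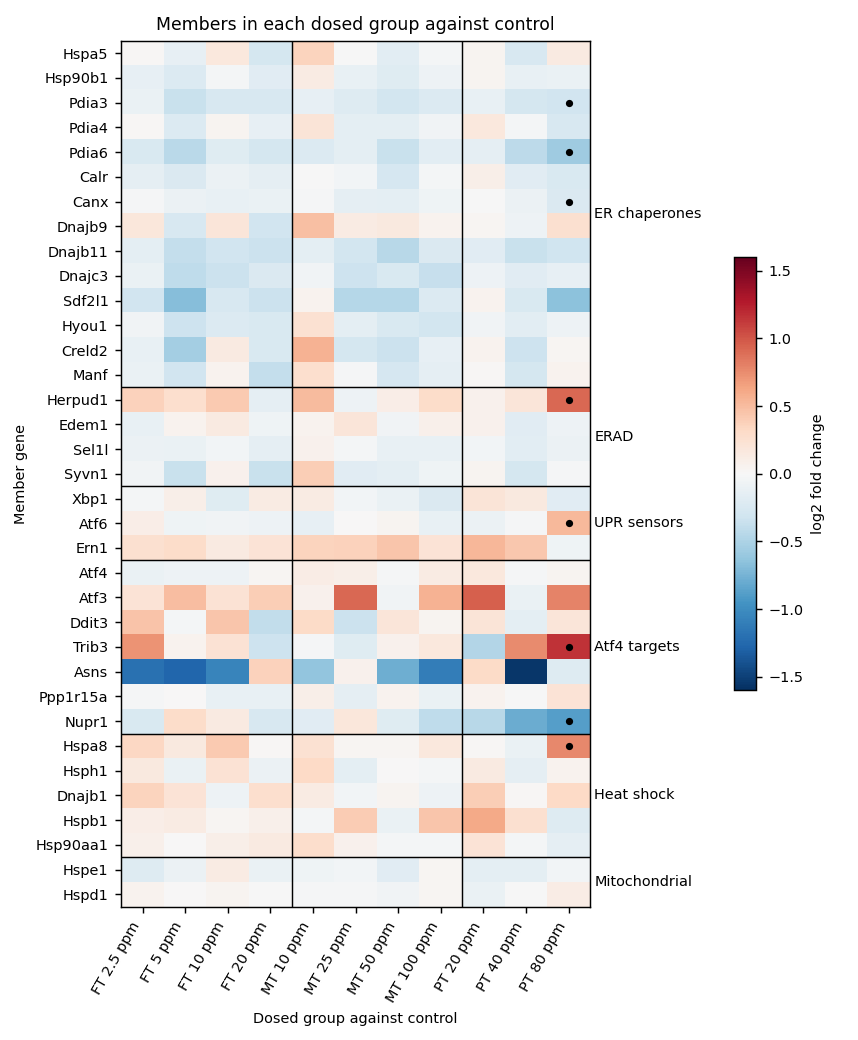
Log2 fold change (colour) of each of the 35 members (rows, by role) in each dosed group against the 7 control mice (columns). Black points mark an adjusted p under 0.05; all 8 lie in the column of PT 80 ppm, and Asns spans the widest range, from −1.55 in PT 40 ppm to 0.37 in FT 20 ppm, without a call.

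Among the ER chaperones, Pdia6, Canx and Pdia3 were lower in PT 80 ppm and none was higher. The median log2 fold change of the 14 was −0.18 there and 4 of 14 lay above 0, against a median of 0.01 over all genes tested. Where no chaperone was called, and against the same 7 control mice, the median ran from −0.32 in FT 5 ppm to 0.10 in MT 10 ppm.

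Pdia6 is a protein disulfide isomerase that also binds the sensors Ern1 and Eif2ak3. In control mice its lowest, median and highest levels were 226, 322 and 424 CPM, in PT 20 ppm 190, 306 and 356, in PT 40 ppm 207, 228 and 261, and in PT 80 ppm 151, 198 and 300. The PT 80 ppm mice overlapped the control mice, but 4 of 7 lay below the lowest control. The log2 fold change was −0.57 ± 0.13 (SE), a fold of 0.676, with an adjusted p of 0.000962 in edgeR, and it was −0.42 in PT 40 ppm, where the adjusted p was 0.402. In blocks 1, 3 and 4 taken apart, PT 80 ppm minus control was −0.83, −0.71 and −0.36 (log2). Over the FT and MT groups, which share these control mice, the median of Pdia6 lay between 226 and 303 CPM with no call (smallest adjusted p 0.334). Its log2 fold change there ran from −0.43 (FT 5 ppm) to −0.15 (MT 25 ppm), below control throughout.

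Canx (calnexin) and Calr hold newly made glycoproteins by their sugars, and Pdia3 is the disulfide isomerase that works with them. Canx was the steadiest chaperone from mouse to mouse, with levels of 463, 532 and 598 CPM in control and 363, 457 and 530 in PT 80 ppm, where 4 of 7 mice lay below the lowest control. Its log2 fold change was −0.23 ± 0.07 (adjusted p 0.0165), and by block −0.39, −0.22 and 0.03. Scaled by total counts alone it was −0.11 and not called, and in the authors' adjusted values the difference was 0.024. Pdia3 had levels of 475, 644 and 925 CPM in control and 384, 532 and 659 in PT 80 ppm, a log2 fold change of −0.31 ± 0.11 (adjusted p 0.0473), and by block −0.35, −0.37 and −0.22. Pdia3 lay below control in every dosed group, from −0.36 in FT 5 ppm to −0.11 in FT 2.5 ppm, so a lower level was not particular to PT 80 ppm. Over the FT and MT groups Canx ran from −0.16 (MT 50 ppm) to −0.01 (MT 10 ppm), with no call. The Pdia3 call held in 2 of 11 other settings and in 6 of 14 fits that left out 1 control or PT 80 ppm mouse, and the Canx call in 5 of 11 and 12 of 14, lost without control replicate 1 (−0.18, adjusted p 0.0826) or PT 80 ppm replicate 1 (−0.18, adjusted p 0.0884). Calr was not called, at −0.24 (adjusted p 0.164).

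Hspa5 (BiP), the Hsp70 of the ER and the usual marker of ER stress, was not called at any dose. Its lowest, median and highest levels were 1830, 3230 and 4150 CPM in control and 1930, 2660 and 5940 in PT 80 ppm. Of the PT 80 ppm mice 1 of 7 lay above the highest control. All PT 80 ppm RNA was isolated by EA, and Hspa5 in control mice of EA alone was at 1830, 2130 and 3350 CPM. The log2 fold change in PT 80 ppm was 0.14, with a 95% interval from −0.26 to 0.55. With 1 control or PT 80 ppm mouse left out it ran from −0.02 to 0.22. Over the FT and MT groups its median lay between 2490 CPM (FT 20 ppm) and 3620 CPM (FT 10 ppm), and its log2 fold change between −0.28 (FT 20 ppm) and 0.36 (MT 10 ppm), with a smallest adjusted p of 0.524. The control median lay within that range. Sdf2l1, a partner of Hspa5, was the lowest of the class in PT 80 ppm at −0.65 (adjusted p 0.055), with levels of 93.8, 146 and 211 CPM in control and 45.2, 83.3 and 250 in PT 80 ppm. In FT 5 ppm Sdf2l1 was at −0.68 (adjusted p 0.441). Dnajb9, which holds Ern1 inactive, was the highest of the class in PT 80 ppm at 0.26 (adjusted p 0.519).

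Of the ERAD genes Herpud1 was higher in PT 80 ppm, and Edem1, Sel1l and Syvn1 were not called. Herpud1 is a membrane protein of the complex that passes misfolded proteins to the proteasome. Its levels were 236, 368 and 587 CPM in control, 199, 391 and 751 in PT 20 ppm, 261, 400 and 779 in PT 40 ppm, and 499, 761 and 1050 in PT 80 ppm. In PT 80 ppm 5 of 7 mice lay above the highest control and the lowest lay inside the control range. The log2 fold change was 0.92 ± 0.24, a fold of 1.89 (adjusted p 0.00322), and by block 1.46, 0.96 and 0.61. Edem1, Sel1l and Syvn1, which pick out, link and ubiquitinate the substrates, had log2 fold changes of −0.08, −0.10 and −0.02. Over the FT and MT groups Herpud1 ranged from −0.15 (FT 20 ppm) to 0.50 (MT 10 ppm) with no call.

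Of the sensors Atf6 was higher in PT 80 ppm. Its levels were 7.46, 14.2 and 20.0 CPM in control and 11.5, 15.5 and 33.6 in PT 80 ppm, and the highest of these, PT 80 ppm replicate 1, was the only mouse above the control range. The log2 fold change was 0.52 ± 0.17 (adjusted p 0.0224), and by block 1.28, 0.08 and −0.24. The call was lost without that mouse (0.31, adjusted p 0.213), without control replicate 1 (0.39, adjusted p 0.0979) and without control replicate 4 (0.46, adjusted p 0.0558), and it held in 8 of 11 other settings. Atf6 was also higher in the 7 mice whose RNA was isolated by EPA, by 0.49 (adjusted p 0.00202), and 2 of these are controls. Xbp1 was not called at any dose. Its levels were 124, 168 and 271 CPM in control and 112, 168 and 252 in PT 80 ppm, with a log2 fold change of −0.18 (95% interval −0.55 to 0.20). Ern1 had a log2 fold change of 0.53 in PT 20 ppm (adjusted p 0.744), 0.43 in PT 40 ppm (adjusted p 0.496) and −0.07 in PT 80 ppm, which is the pattern behind its call over the doses of PT (adjusted p 0.0127).

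Of Atf4 and its targets Trib3 was higher and Nupr1 lower in PT 80 ppm. Trib3 is a pseudokinase that holds Atf4 back. Its levels were 0.823, 2.02 and 3.58 CPM in control, 0.448, 1.6 and 3.73 in PT 20 ppm, 0.952, 3.5 and 5.97 in PT 40 ppm, and 1.98, 3.11 and 8.83 in PT 80 ppm. In PT 80 ppm 3 of 7 mice lay above the highest control. The log2 fold change was 1.16 ± 0.39, a fold of 2.23 (adjusted p 0.0275), and by block −0.08, 1.03 and 0.90, so that the mice of block 1 did not share it. The call held in 6 of 11 other settings and in 10 of 14 fits that left out 1 mouse. It was lost without PT 80 ppm replicate 3 (0.80, adjusted p 0.148) or replicate 6 (0.96, adjusted p 0.0794), without control replicate 2 (1.07, adjusted p 0.0605) or replicate 4 (1.05, adjusted p 0.0659), and without block 3 (0.71, adjusted p 0.371). Nupr1, a small stress-induced nuclear protein, had levels of 1.91, 2.53 and 5.99 CPM in control and 1.32, 1.80 and 2.95 in PT 80 ppm, where 5 of 7 mice lay below the lowest control. Its log2 fold change was −0.88 ± 0.26 (adjusted p 0.0122), and by block −0.94, −0.28 and −0.15. Its control group included 1 mouse of block 1 that stood above all others, and without that mouse the call was lost (log2 fold change −0.58, adjusted p 0.126). Over the FT and MT groups Trib3 ranged from −0.33 (FT 20 ppm) to 0.72 (FT 2.5 ppm), with no call. Nupr1 ranged there from −0.41 (MT 100 ppm) to 0.30 (FT 5 ppm), also with no call.

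Atf4 itself had levels of 168, 177 and 245 CPM in control and 174, 208 and 259 in PT 80 ppm, a log2 fold change of 0.05 (95% interval −0.18 to 0.28). Ddit3, the factor tied to cell death under lasting ER stress, had levels of 1.15, 1.87 and 3.09 CPM in control and 1.17, 1.88 and 3.27 in PT 80 ppm, a log2 fold change of 0.19 (95% interval −0.38 to 0.77). Asns (asparagine synthetase) lay near the floor of the assay, at 0.307, 1.35 and 2.67 CPM in control and 0.409, 0.549 and 3.84 in PT 80 ppm, and its log2 fold change of −0.21 changed sign between settings. Over the other dosed groups Asns ranged from −1.55 in PT 40 ppm (adjusted p 0.474) to 0.37 in FT 20 ppm. Atf3, an early stress factor, was at 0.79 in PT 80 ppm with 5 of 7 mice above the highest control (adjusted p 0.152). It was at 0.95 in PT 20 ppm and 0.91 in MT 25 ppm, and at its lowest, −0.11, in PT 40 ppm. Neither Atf4, Ddit3, Asns nor Atf3 was called in any group.

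Of the cytosolic heat shock genes Hspa8 was higher in PT 80 ppm. Hspa8 (Hsc70) is the constitutive Hsp70 of the cytosol. Its levels were 455, 497 and 633 CPM in control, 371, 594 and 893 in PT 20 ppm, 406, 469 and 833 in PT 40 ppm, and 457, 943 and 1350 in PT 80 ppm. In PT 80 ppm 6 of 7 mice lay above the highest control, and the remaining mouse, in block 3, lay at the bottom of the control range. The log2 fold change was 0.77 ± 0.19, a fold of 1.71 (adjusted p 0.00183), and by block 1.35, 0.36 and 0.78. Over the FT and MT groups, against the same control mice, the log2 fold change of Hspa8 ran from 0.02 to 0.41 with no call (smallest adjusted p 0.221), and it was −0.11 in PT 40 ppm. Hsph1, Dnajb1, Hspb1 and Hsp90aa1, which help or join Hsp70 and Hsp90 in folding, had log2 fold changes of 0.06, 0.32, −0.21 and −0.14 in PT 80 ppm and none was called. The mitochondrial chaperonin pair Hspd1 and Hspe1 was not called at any dose.

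**Figure D2:**
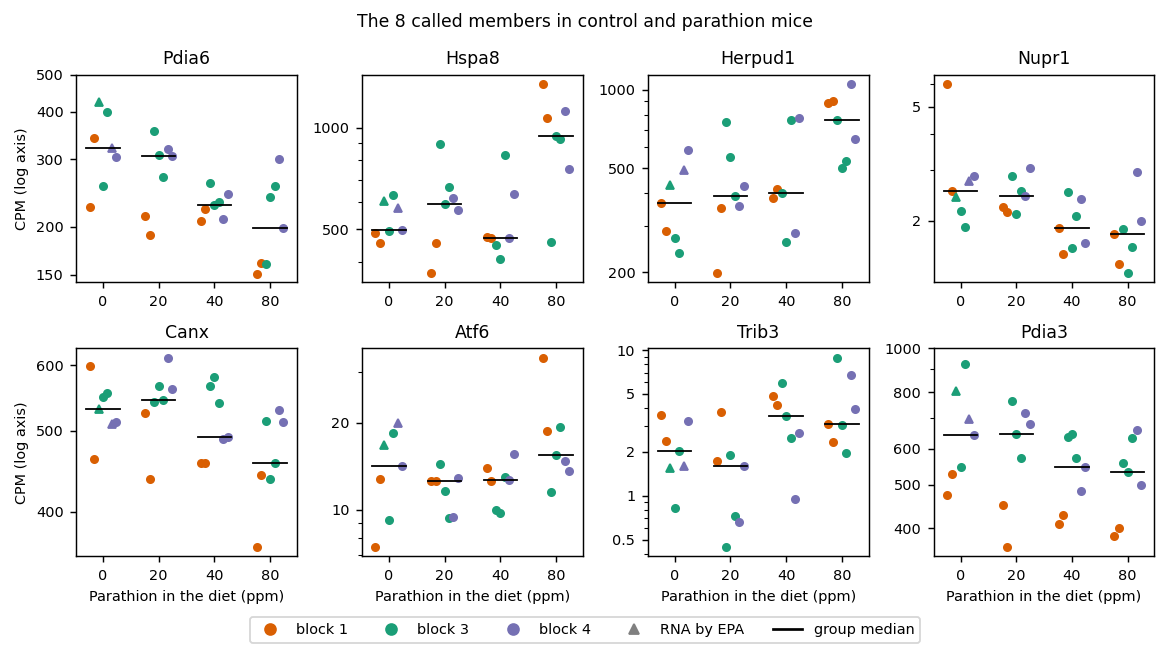
Level of each of the 8 called members (CPM, log axis) in every control and PT mouse, by ppm of PT in the diet, with 7 mice a group; colour gives the block, triangles mark RNA isolated by EPA and black lines are group medians. At 80 ppm 6 of 7 Hspa8 values and 5 of 7 Herpud1 values lie above the highest control, and the highest Atf6 value at 80 ppm, 33.6 CPM, is 1 mouse of block 1.

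In a fit without the 24 mice of block 1 edgeR called 0 members and 741 genes of all kinds. The log2 fold changes were then 0.48 for Hspa8 (adjusted p 0.212), 0.68 for Herpud1 (0.207), −0.42 for Pdia6 (0.102) and 0.09 for Atf6 (0.853), all nearer to 0 than with all mice, and 1.36 for Trib3 (0.0794), farther from 0. Leaving out PT 80 ppm replicate 1 alone, or control replicate 1 alone, left 5 members called. The share of all genes called in those fits is not given here, so the change in count is not a result about the members. Hspa8, Herpud1 and Pdia6 were called in 14 of 14 fits that left out 1 control or PT 80 ppm mouse and in 10 of 11 other settings.

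Other groups of genes also moved between control and PT 80 ppm. Of 10 acute phase genes 7 were lower, with a summed level of 12200, 54500 and 99700 CPM (lowest, median and highest) in control and 9910, 11300 and 21400 in PT 80 ppm, against a median of 18200 over all mice. Of 5 tested circadian clock genes 3 were higher (summed level 28.2, 51.3 and 597 CPM in control, 119, 194 and 682 in PT 80 ppm), and of 10 tested fasting and glucocorticoid genes 4 were higher (720, 1120 and 1610 against 1420, 1840 and 4190 CPM). Of 5 tested Kupffer cell markers 3 were lower (74.7, 98.8 and 159 against 14, 81.3 and 100 CPM), and of 6 hepatocyte markers 3 were higher. Of 3 tested plasma cell markers 1 was lower, Ighm (−2.41, adjusted p 6.82e-06), and Jchain was at 0.36 (adjusted p 0.663), with a summed level of the plasma cell list of 5.29, 13.3 and 26.2 CPM in control and 3.03, 3.17 and 15.7 in PT 80 ppm. The only tested lymphocyte marker, Cd4 (−1.25, adjusted p 0.00402), and the only tested cholangiocyte marker, Spp1 (−1.11, adjusted p 0.00106), were lower. Of 4 stellate cell or fibroblast markers 1 was higher and 1 lower, and 0 of 2 neutrophil and 0 of 4 sinusoidal endothelial markers were called by edgeR, with 1 of each at an unadjusted p under 0.05; DESeq2 called 0 of each, and limma 0 and 1. Without PT 80 ppm replicate 1 edgeR lost the Kupffer cell markers Clec4f (adjusted p 0.0511) and Csf1r (0.121) and kept Cd5l (0.0259). It also lost Tat (hepatocyte, 0.303), Igfbp1 (fasting, 0.725), Apcs (acute phase, 0.0581), Dcn and Col3a1 (stellate cell, 0.191 and 0.081). The other called markers were kept. Without block 1 it lost Cd5l (0.0852), Cps1 (hepatocyte, 0.246) and Spp1 (0.0984), among others. The part of these groups of genes in the members' differences was not tested.

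The other genes of the pathway were read from lists drawn up for this report, beside the 18.6% of all genes called in PT 80 ppm. Of 19 other ER folding and translocation genes 0 were higher and 3 lower, among them Ppib, a prolyl isomerase of the ER, which had a log2 fold change of −0.47 (adjusted p 0.000863). The other 2, named after their values were seen, were the translocation and glycosylation subunits Ssr1 (−0.52) and Ostc (−0.38). Of 13 other ERAD genes 1 was lower, Vcp (−0.27), the ATPase that pulls substrates from the membrane, also named after its value was seen. Of 17 other sensors and transcription factors 2 were lower, among them Nfe2l1, which raises proteasome genes, at −0.33 (adjusted p 0.00128). Of 23 other heat shock genes 1 was higher, the chaperonin subunit Tcp1 at 0.29 (adjusted p 0.000288), and 2 were lower. Of 9 mitochondrial chaperones and proteases 1 was higher.

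Among 15 other Atf4 targets 3 were higher and 4 lower in PT 80 ppm. Mthfd2, the mitochondrial folate enzyme that Atf4 raises, was lower by a log2 fold change of −1.63 (adjusted p 2.01e-07), with levels of 16.6, 21.4 and 28 CPM in control and 2.67, 7.24 and 17.7 in PT 80 ppm. Cth, which makes cysteine, was higher by 1.28 (adjusted p 1.41e-05), with levels of 78.9, 128 and 182 CPM against a median of 221 and a highest of 753 CPM, and the lowest PT 80 ppm mouse lay inside the control range. Ddit4, which is raised by glucocorticoids as well as by Atf4, had a fitted log2 fold change of 2.69 (adjusted p 0.000705), but its median was 1.31 CPM in control and 0.981 in PT 80 ppm, and the fit rested on PT 80 ppm replicate 1, at 44.3 CPM. Without that mouse it was 0.56 and not called (adjusted p 0.507), while Mthfd2 was at −1.64 and Cth fell from 1.28 to 0.88, both still called. Of the 17 pathway genes called in PT 80 ppm, 11 were called without that mouse, 14 without control replicate 1 and 4 without block 1, where Cth was not called.

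**Figure D3:**
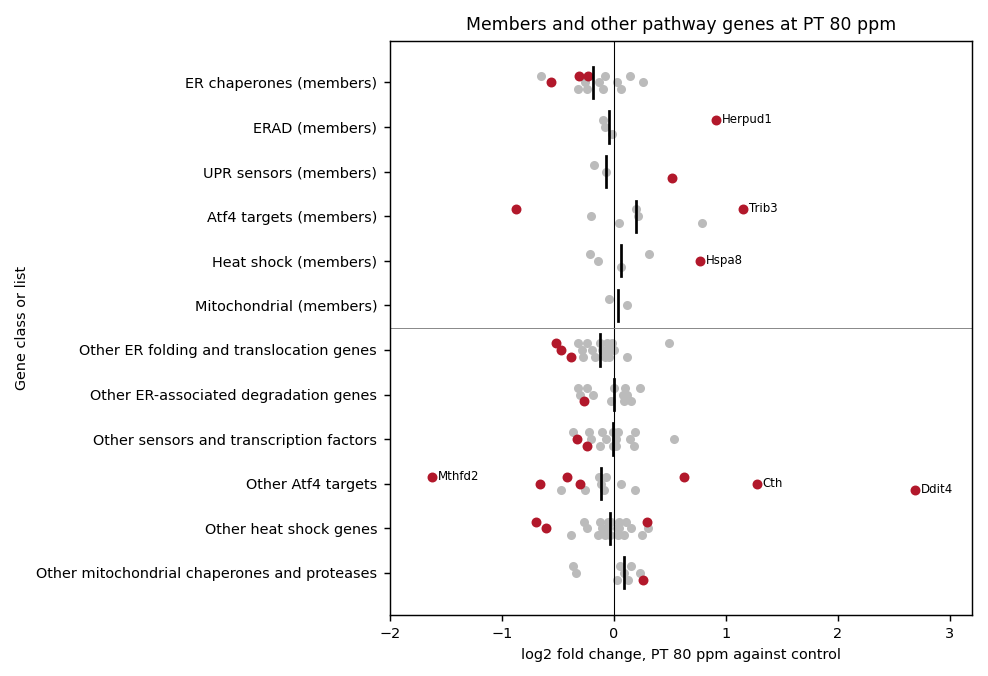
Log2 fold change in PT 80 ppm against control of every tested gene (points) in the 6 member classes and the 6 other pathway lists; red points have an adjusted p under 0.05, black bars are medians. Called genes lie on both sides of 0 in the Atf4 rows, from −1.63 (Mthfd2) to 2.69 (Ddit4), and on the lower side alone in the ER chaperone and ER folding rows.

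The members also differed between experimental blocks, a comparison added after the data were seen. A block held 24 or 36 mice and a diet 7, so the counts of calls are not set against those between diets. The joint test of block called 24 of 35 members, against 39.9% of all genes. In block 3 minus block 1, 25 members were higher against 18.8% of all genes and 1 was lower against 21.2%. In block 4 minus block 1, 22 were higher against 18.2% and 1 lower against 19.9%. Between blocks 4 and 3, 0 members were called by edgeR and 2 had an unadjusted p under 0.05, against 0.0192% of all genes called higher and 0.0192% lower; DESeq2 and limma were not run for this comparison. Each block held the same number of mice from every diet, so diet and block are not confounded.

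By class, 13 of 14 ER chaperones, 4 of 4 ERAD genes, 5 of 5 cytosolic heat shock genes and 2 of 2 mitochondrial chaperones were higher in block 3 than in block 1, while 0 of the 3 sensors were called. Hspa5 had lowest, median and highest levels of 1390, 1770 and 3040 CPM in block 1, 1140, 3230 and 6160 in block 3, and 1640, 3210 and 5940 in block 4. The ranges overlapped, and the log2 differences from block 1 were 0.80 ± 0.10 and 0.81 ± 0.11 (adjusted p 9.84e-10 and 8.39e-09). Hsph1, the cytosolic Hsp110, had levels of 18.4, 26.3 and 50.1 CPM in block 1, 24.3, 58.1 and 105 in block 3, and 31, 58.6 and 124 in block 4, the widest difference of all members at 1.10 ± 0.12 and 1.08 ± 0.12. Creld2 and Manf, small ER proteins that are strongly raised by ER stress, differed by 1.01 and 0.91 in block 3 and by 1.05 and 0.90 in block 4, and Syvn1, the ubiquitin ligase of ERAD, by 0.94 and 0.93.

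Trib3 went the other way, with levels of 1.72, 3.40 and 5.94 CPM in block 1, 0.448, 1.78 and 8.83 in block 3, and 0.409, 1.64 and 6.77 in block 4, log2 differences of −0.89 ± 0.19 and −0.96 ± 0.21. Ddit3 was higher than in block 1 by 0.48 ± 0.14 and 0.77 ± 0.15. Xbp1, Atf6, Ern1, Atf4, Atf3, Asns, Ppp1r15a, Nupr1, Dnajc3, Hspb1 and Hspe1 were not called by the joint test of block. The 8 circadian clock genes in the count table had a median summed level of 478 CPM in block 1, 64.8 in block 3 and 52.7 in block 4, and the 10 acute phase genes one of 14500, 21100 and 22300 CPM. Their part in the block differences was not tested.

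**Figure D4:**
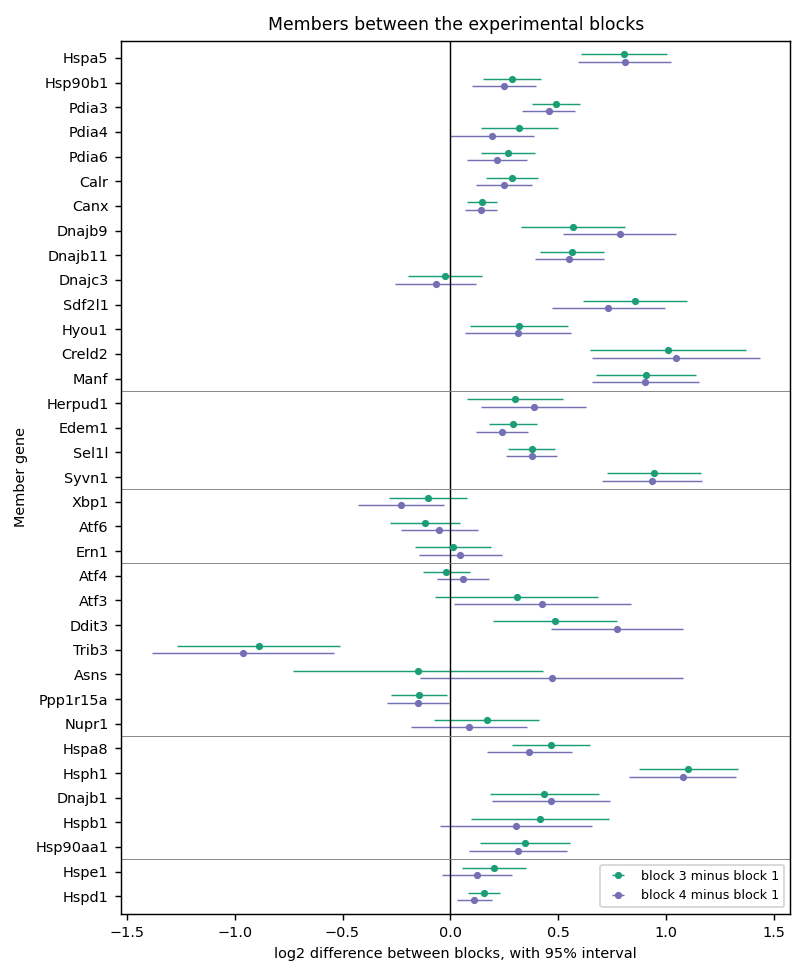
Log2 difference of each member between block 3 or block 4 and block 1 (points, with 95% intervals) in the fit over 84 mice, by role. ER chaperones, ERAD genes and heat shock genes lie above 0 by up to 1.10 (Hsph1), the sensors lie about 0 and Trib3 lies at −0.89 and −0.96.

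Between RNA isolators, which was also added after the data were seen, 2 members were higher with EPA (19.6% of all genes) and 3 lower (19% of all genes). Atf6 was higher by 0.49 ± 0.13 and Pdia6 by 0.25 ± 0.10, and Pdia4, Nupr1 and Hspe1 were lower by 0.49, 0.60 and 0.30 on the log2 scale.

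Among mice of the same diet, block and isolator the ER chaperones moved together. The median Pearson r over the 91 pairs of ER chaperones was 0.60, on residuals of log2(CPM + 1) over 84 mice, against a median of −0.0009 and a percentile 90 of 0.26 over all pairs of tested genes. These correlations describe libraries that share probes, plates and scaling, and carry no test. The median was 0.44 within ERAD, 0.37 within the cytosolic heat shock genes and 0.17 within Atf4 and its targets, and 0.46 between ER chaperones and ERAD genes. Hspa5 was most like Manf (r = 0.96), and Creld2 (0.93) and Syvn1 (0.88) were most like Hspa5. All 4 have an ERSE or ERSE-II among the sequences shown above. Closeness and the element did not go together throughout: Pdia3 and Dnajb11 formed another close pair (r = 0.90) and Sel1l was most like Creld2 (0.86), and the windows of Pdia3, Dnajb11 and Sel1l hold no ERSE or ERSE-II. Trib3 had its lowest r with Atf4, −0.48.

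In all, 3 relations across mice were tested by permutation of the residuals, with p-values adjusted over the 3. Hspa5 and Hsp90b1 (Grp94, the Hsp90 of the ER) had r = 0.78 and Spearman's rho = 0.71 over 84 mice, each with a permutation p of 1e-05, the smallest that 100000 resamples can give, and an adjusted p of 3e-05. Without the 2 mice farthest from the median of Hspa5, r was 0.74, and it was 0.29, 0.80 and 0.91 within blocks 1, 3 and 4. Hspa5 and Xbp1 had r = 0.12 and rho = 0.085 (adjusted permutation p 0.398 and 0.442, r 0.0054 without the 2 farthest mice), and −0.42, 0.30 and −0.47 within blocks. Hspa5 and Asns had r = 0.087 and rho = 0.12 (adjusted permutation p 0.430 and 0.433, r 0.15 without the 2 farthest mice), and 0.49, 0.16 and 0.18 within blocks.

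**Figure D5:**
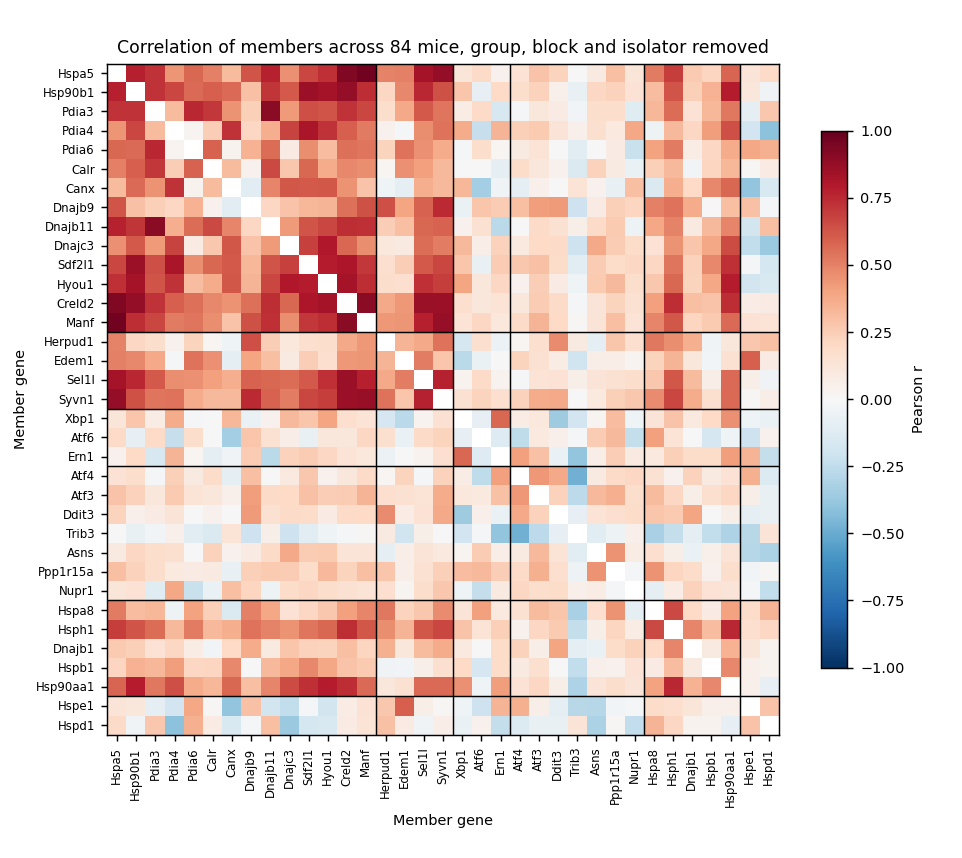
Pearson r between every pair of members across 84 mice, after removal of group, block and isolator means from log2(CPM + 1), ordered by role with lines between classes. Pairs of ER chaperones have a median r of 0.60 but run down to −0.11 (Canx with Dnajb9). All other pairs run from −0.48 (Trib3 with Atf4) to 0.88 (Hspa5 with Syvn1). Between these lie 0.58 (Xbp1 with Ern1) and 0.60 (Hspe1 with Edem1).

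The spread between mice of 1 group, with blocks not separated, differed widely among members. Creld2 had a within-group SD of 0.80 on the log2 scale, at percentile 99 of all genes tested, followed by Hsph1 (0.66), Manf (0.61), Trib3 (0.60), Sdf2l1 (0.59) and Syvn1 (0.59), and Hspa5 stood at 0.53. The steadiest were Canx (0.14) and Hspd1 (0.15), at percentiles 4.7 and 6.4. A difference of 1 size therefore stood out against the spread in Canx and not in Creld2, whose 95% interval in PT 80 ppm ran from −0.70 to 0.76.

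Pesticides were compared at a shared level in the diet in 2 pairs of groups. Between FT 10 ppm and MT 10 ppm 0 members were called (0% of all genes), 1 had an unadjusted p under 0.05, and the log2 differences ran from −0.47 to 0.32. Hspa5 differed by −0.19 (95% interval −0.58 to 0.20) and Herpud1 by −0.09 (−0.53 to 0.36). Between FT 20 ppm and PT 20 ppm, a dimethyl against a diethyl phosphorothioate, 0 members were called (0% of all genes), 1 had an unadjusted p under 0.05, and the log2 differences ran from −0.60 to 0.18. Hspa5 differed by −0.32 (−0.73 to 0.08), Herpud1 by −0.22 (−0.67 to 0.24) and Hspa8 by −0.0045 (−0.37 to 0.36). DESeq2 and limma called 0 members in both pairs. Intervals of this width do not show that the pesticides acted alike, and FT was not given at the level of PT 80 ppm.

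Of the 41 listed genes 6 were not analysed, 5 of them for falling short of the count minimum. Psat1, a serine enzyme raised by Atf4, had a median of 1 count and a highest of 6, and Chac1, which degrades glutathione, a median of 2 and a highest of 16. Derl3, a channel protein of ERAD, had a median of 3 and a highest of 22, and Sesn2 a median of 8 and a highest of 34. In a fit without the minimum Psat1 was lower in PT 80 ppm (log2 fold change −2.68, adjusted p 0.0468). There 6 of 7 mice had 0 counts, and control mice had a median of 2. Psat1 was also at −2.70 in MT 100 ppm (adjusted p 0.189) and −2.02 in PT 20 ppm (0.636), with 5 of 7 mice at 0 in each. A low level was thus not particular to PT 80 ppm, and 37 of 84 mice were at 0. Hspa1a, the stress-inducible Hsp70, had a median estimated count of 0 and a highest of 25.9, in a mouse of FT 20 ppm, and 47 of 84 mice were at 0. Its reads can be shared with its near-identical copy Hspa1b, which was not analysed here, so its counts are uncertain.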

How the data were processed

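Liver RNA of 84 mice was read by TempO-Seq. Per the paper's methods, the authors trimmed the reads, aligned them with STAR to mm39, quantified Ensembl transcripts with Partek E/M and deposited estimated counts per gene that are not normalized; 18.7% of them are not whole and they were rounded here. The authors also deposited a table of genes past a median count of 8 as log2 values of CPM with 1 added, adjusted for block and RNA isolator. One alternative, with no test, used these deposited log2 values, a score adjusted for block and isolator. Gene names came from GENCODE on GRCm39, which named 17660 of 17695 identifiers. All columns were matched to a mouse.

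Counts were fitted with edgeR 4.0.16 (TMM, quasi-likelihood, group, block and isolator, all mice) over the 10415 genes with a median count above 8, with Benjamini-Hochberg adjustment over all of them. DESeq2 1.42.0 and limma 3.58.1 on log2(CPM + 1) were alternatives, as were other scalings, filters, covariates and subsets of mice. For limma CPM was scaled by total counts and not by trimmed means. Scripts were tested on simulated data. The most alike of 252 same-group pairs of libraries differed by a chi-square of 8 per gene, so each library was counted once. Intervals cover this fit, and p-values measure the spread between mice, with mice of 1 cage treated as independent. The members and lists were chosen with earlier results of these data known. Genes with values were named if called in a dosed group, or if among Hspa5, Xbp1, Atf4, Ddit3, Asns, Hspa1a and Hspa8; of other pathway genes, the 6 with the smallest adjusted p; others as the text says. The comparisons of blocks and isolators and the search of promoters were added after the data were seen.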

Additional observations from a re-analysis of the deposited data

Results flagged for a closer look

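For 13 members (the 8 called ones and Hspa5, Xbp1, Atf4, Ddit3 and Asns) each of the 12 groups was searched for a mouse whose gap to the nearest other mouse, as a share of the range of its group, was above Dixon's critical value for 7 mice. This held in 12 of 156 searches, where about 5% would by chance. Nupr1 stood apart on the high side in control replicate 1 (5.99 CPM, others 1.91 to 2.86), FT 2.5 ppm replicate 3 (5.53 CPM) and MT 10 ppm replicate 2 (6.15 CPM). Canx stood apart on the high side in FT 5 ppm replicate 4 (610 CPM) and MT 100 ppm replicate 7 (571 CPM), and on the low side in FT 10 ppm replicate 2 (347 CPM, others 470 to 563). Ddit3 was apart in FT 10 ppm replicate 6 (4.14 CPM) and PT 20 ppm replicate 3 (5.46 CPM). Single mice stood out for Pdia6 in MT 50 ppm (replicate 3, 352 CPM, others 211 to 230), Herpud1 in FT 2.5 ppm (replicate 6, 982 CPM, others 371 to 533), Xbp1 in FT 2.5 ppm (replicate 2, 258 CPM) and Asns in PT 80 ppm (replicate 1, 3.84 CPM, others 0.409 to 1.09). All 12 mice had RNA isolated by EA. PT 80 ppm replicate 1 is also the mouse with the highest Atf6 and Ddit4 described above.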

How the results depend on the processing

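Of the alternative values of the counts of called members and of the correlations, 368 stayed within 1.5 times the count or on their side of the threshold, 15 counts moved by more, and of the correlations 2 passed the threshold and 1 changed sign. The 368 include the counts of 0 in the FT, MT, PT 20 ppm and PT 40 ppm groups. Of the alternative values of single genes in PT 80 ppm 116 kept their direction and side, 29 lost the call, 4 moved and 7 changed sign. Members called in PT 80 ppm numbered 8, and 4 with control and PT mice alone, 3 with no covariates, 0 without block 1, 5 without block 3, 1 with a fold change of at least 2 added (344 genes of all kinds) and 5 to 9 with 1 control or PT 80 ppm mouse left out. For the doses of PT jointly the 8 became 3 with control and PT mice alone, 5 with no covariates, 1 without block 1, 5 without block 3, 1 with the fold change added and 6 to 11 with 1 mouse left out. For the slope of PT the 7 became 4 with no covariates, 2 without block 1 and 4 without block 3; the fold change rule and the fits leaving out 1 mouse were not run for slopes. Except where a number of genes of all kinds is printed, the background of these fits is not given here. Changes in these counts are therefore not results about the members. Scaling by total counts moved the median of all genes in PT 80 ppm by 0.12 (log2). The members then split into 5 higher and 2 lower in place of 4 and 4, as in limma, which used the same scaling. Leaving out 1 mouse kept every FT, MT, PT 20 ppm and PT 40 ppm count at 0 where it was run. Apart from fits leaving out 1 mouse, the log2 fold change in PT 80 ppm changed sign for Canx in the deposited adjusted values (0.024). It also did for Xbp1 without block 3 (0.10) and for Atf4 without block 4 (−0.04). For Asns it did with EA mice alone (0.21), with control and PT mice alone (0.22), without block 3 (0.26) and without block 4 (0.23). With 1 control or PT 80 ppm mouse left out, the lowest values of Hspa5 (−0.02) and Atf4 (−0.008) changed sign too. On log2(count + 1) within 1 block, r of Hspa5 with Xbp1 was 0.42 in block 3 and −0.11 in block 4, and r of Hspa5 with Asns was 0.44 in block 1. The causes were not tested. No paired analysis was possible because the labels give no pairing of mice, and block entered the fit as a covariate. The replicate numbers used here were assigned in the order of the samples and do not pair mice between groups. Depth limits Asns, Trib3, Ddit3, Atf3 and Nupr1, whose levels lie within a few counts of the floor in some mice, and the genes below the count minimum.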

Other observations

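Other pathway genes also differed between experimental blocks. In block 3 minus block 1, 12 of 19 other ER folding and translocation genes were higher and 1 lower, 5 of 13 other ERAD genes were higher and 1 lower, and 14 of 23 other heat shock genes were higher and 2 lower, beside 18.8% higher and 21.2% lower among all genes tested. Bag3, which links Hsp70 to autophagy, was higher by 0.78 ± 0.12 on the log2 scale (adjusted p 1.77e-07), Chordc1, a partner of Hsp90, by 0.67 ± 0.07 (1.3e-12), and Ostc, a subunit of oligosaccharyltransferase, by 0.56 ± 0.07 (1.93e-10). Of 17 other sensors and transcription factors 6 were higher and 0 lower, among them Eif2ak3 at 0.37 ± 0.08 (0.000104) and Atf5 at 0.45 ± 0.04 (2.22e-13). Of 15 other Atf4 targets 7 were higher and 1 lower, among them Mthfd2 at 0.64 ± 0.11 (1.93e-06) and Psph, of serine synthesis, at 0.47 ± 0.08 (1.52e-06), while Gpt2, an alanine aminotransferase, was lower by 0.54 on the log2 scale (1e-05). These genes were named after their values were seen, and the comparison was added after the data were seen. DESeq2 and limma were not run for it.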
